A study of Homo sapiens with 4 samples.

Results

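The mitochondrial messenger and transfer RNAs are described here as they appeared in an eCLIP experiment on ZFR, a protein that binds RNA through zinc fingers and carries a DZF domain. In eCLIP (enhanced crosslinking and immunoprecipitation), RNA is fixed to its bound proteins with ultraviolet light and the pieces attached to 1 protein are pulled down. A size-matched input is prepared from the same size range of protein-bound RNA without the immunoprecipitation. The members were the peaks on the mitochondrial chromosome whose gene identifier was neither of the mitochondrial ribosomal RNA genes, RNR1 (ENSG00000211459) and RNR2 (ENSG00000210082). They numbered 354 of the 595484 peaks in the 4 deposited lists and fell in 27 genes. The eCLIP lists held 151 (replicate 1) and 90 (replicate 2) of them, and the inputs 59 and 54.

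All 4 libraries came from Flp-In T-REx-293 cells, a human embryonic kidney line with a single integration site, carrying FLAG-tagged ZFR stably inserted at that site. Cells were given doxycycline at 1 µg/mL to switch on the transgene, were harvested after 48 to 72 h, and received 400 mJ/cm2 of ultraviolet light. The groups were 2 eCLIP libraries and 2 inputs, numbered 1 and 2, and the inputs carried the same transgene and induction. No library without the tagged protein was used here, the tagged copy came from an inducible transgene, and the cells were polyclonal. Whether the 2 libraries of a group are separate cultures is not labelled, so each p-value reflects the spread between these libraries alone, and that spread may be technical.

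Human mitochondrial DNA is a small circle that is read from both strands as long precursor RNAs. Transfer RNAs lie between most of the protein-coding genes, and cutting them out of the precursor releases the messenger RNAs. The transcript of the heavy strand carries both ribosomal RNAs, most transfer RNAs and every messenger RNA except ND6. The transcript of the light strand carries ND6 and the remaining transfer RNAs, and most of its length is antisense to genes and is degraded quickly. The messenger RNAs encode subunits of the respiratory chain and of ATP synthase, and all of them are translated inside the mitochondrion. In the deposited coordinates, genes of the heavy-strand transcript lie on the plus strand and genes of the light-strand transcript on the minus strand.

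The 4 lists were of very different length. They held 479308 and 41904 peaks in the eCLIP libraries against 63068 and 11204 in the inputs, with 3075352 and 229647 reads in peaks against 249245 and 102084. The number that ends each peak's name was taken as its reads, although the files do not state it. The depth of the libraries is unknown, and Wilson 95% intervals given here cover counting error only. Every one of the 533 mitochondrial peaks lay inside a mitochondrial gene of RefSeq's table for GRCh38.p14, and each of the 29 gene identifiers fell in exactly 1 such gene, which gave the names. No listed mitochondrial peak lay between genes. Every peak carried a gene identifier, and each gene had peaks on 1 strand only. The lack of peaks between genes or antisense to them therefore cannot be read as a lack of such RNA.

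Member peaks were few but deep. Their median depth was 164 and 47 reads in eCLIP replicates 1 and 2 and 13 and 32 in inputs 1 and 2, whereas the median of all peaks was 4, 3, 3 and 4 reads in the same order. They made up 0.0315% and 0.215% of the peaks in the eCLIP libraries, with 0.0935% and 0.482% in the inputs. Of the reads in peaks they took 0.881% in eCLIP replicate 1 (27091 reads, interval 0.871 to 0.891) and 2.18% in eCLIP replicate 2 (5016 reads, 2.13 to 2.24). In input 1 they took 0.350% (872 reads, 0.327 to 0.374), and in input 2 they took 2.13% (2175 reads, 2.04 to 2.22). The shares of eCLIP replicate 2 and input 2 were thus nearly equal, input 1 was lowest, and the groups overlapped. On the log2 scale eCLIP exceeded input by 0.68 with a pooled SD of 1.46 (exact two-sided permutation p = 0.67, 2 libraries against 2, where the smallest possible p is 0.33). The difference was 1.33 between the libraries numbered 1 and 0.04 between those numbered 2. With touching intervals merged and the deepest read number kept, these became 0.67 and -0.24. Without input 1 the eCLIP mean lay below the remaining input, at -0.62.

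The share of ribosomal RNA peaks ranged more widely over the libraries than that of the members. RNR1 and RNR2 together took 2.58% and 6.39% of the reads in peaks in the eCLIP libraries, with 1.32% and 28.3% in the inputs. Members were 25.4% and 25.5% of all mitochondrial reads in eCLIP replicates 1 and 2, against 20.9% in input 1 and 6.99% in input 2. Both eCLIP libraries thus had the higher share of messenger and transfer RNA within the mitochondrial reads, and input 1 lay much closer to them than input 2. This share was not among the planned measures and has no test. With touching intervals merged, a setting added after seeing the data, ribosomal RNA took 8.79% in input 2, and members were 41.1% and 44.9% of mitochondrial reads in eCLIP, with 27.0% and 22.8% for input. The part of that ribosomal RNA in the members' share of all reads was not tested beyond taking it out of the total, which gave a log2 difference of 0.50. This was 1.35 between the libraries numbered 1 and -0.35 between those numbered 2.

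**Figure D1:**
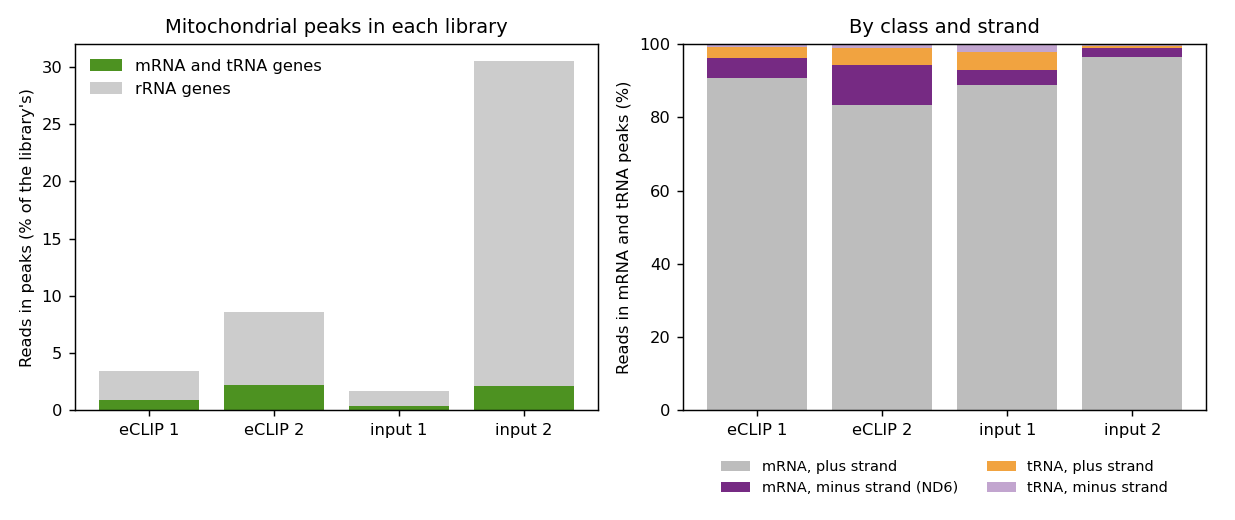
The left panel plots the percentage of each library's reads in peaks that fell in mitochondrial messenger and transfer RNA genes and in ribosomal RNA genes, and the right panel divides the messenger and transfer RNA reads by class and strand. Input 2 is tallest on the left with 28.3% of ribosomal RNA (8.79% with touching intervals merged), and ND6, the messenger RNA of the minus strand, is widest in eCLIP replicate 2 at 10.8%.

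All 13 messenger RNAs and 14 of the 22 transfer RNAs had a peak in at least 1 library. Messenger RNAs held 96.0% and 94.2% of the member reads in the eCLIP libraries, with 93.0% and 98.9% in the inputs. Transfer RNAs held 3.95% and 5.82% against 7.00% and 1.15%, so neither class separated the groups. Of the 27 genes listed, 22 lay on the plus strand and 5 on the minus strand, namely ND6, TRNP, TRNY, TRNC and TRNE. The subunits of complex I (NADH dehydrogenase) took 43.9% and 55.6% of the member reads in eCLIP against 46.9% and 55.0% in input. Those of complex IV (cytochrome c oxidase) took 35.1% and 24.4% against 28.8% and 18.0%.

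Among the complex IV subunits, COX1 (ENSG00000198804.2), the catalytic core of cytochrome c oxidase, had 5245 reads in 19 peaks in eCLIP replicate 1, 660 reads in 9 peaks in eCLIP replicate 2, 135 reads in 6 peaks in input 1 and 201 reads in 4 peaks in input 2. It held the most member reads in eCLIP replicate 1, where ND5 (3193) and COX1 (3179) were close with touching intervals merged, while ND4 led in eCLIP replicate 2 and input 2 and ND5 led in input 1. As a share this was 17.1 and 28.7 reads per 10000 reads in peaks in eCLIP, and 5.42 and 19.7 in the inputs. Input 2 thus lay between the eCLIP libraries. COX2 (ENSG00000198712.1), which carries the copper center that receives electrons from cytochrome c, had 1921, 308, 62 and 106 reads in the order eCLIP replicates 1 and 2 and inputs 1 and 2, which is kept for the genes that follow, or 6.25 and 13.4 per 10000 in eCLIP against 2.49 and 10.4. COX3 (ENSG00000198938.2), the remaining mitochondrially encoded core subunit, had 2336, 258, 54 and 84 reads, or 7.60 and 11.2 per 10000 against 2.17 and 8.23. For all 3 genes eCLIP replicate 2 was highest and input 1 lowest, and each eCLIP library exceeded the input of its number.

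Complex I is represented by 7 messenger RNAs, of which ND4 and ND5 held most reads. ND4 (ENSG00000198886.2), a proton-pumping membrane subunit, had 3411, 863, 113 and 575 reads, or 11.1 and 37.6 per 10000 in eCLIP against 4.53 and 56.3 in input. Input 2 was the highest of the 4 for this gene. ND5 (ENSG00000198786.2), another membrane subunit of the pump, had 3333, 782, 136 and 298 reads, or 10.8 and 34.1 per 10000 against 5.46 and 29.2. ND2 (ENSG00000198763.3) had 1160, 158, 65 and 142 reads, or 3.77 and 6.88 per 10000 against 2.61 and 13.9. ND1 (ENSG00000198888.2), next to the quinone-binding site, had 1116, 191, 32 and 68 reads, or 3.63 and 8.32 per 10000 against 1.28 and 6.66. ND2 resembled ND4 in having its highest share in input 2, whereas ND1 and ND5 were highest in eCLIP replicate 2. ND4L, which shares a bicistronic messenger RNA with ND4, had 855, 164 and 27 reads in the eCLIP libraries and input 2, with no peak listed in input 1. ND3 had 567, 87, 27 and 35 reads.

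CYTB (ENSG00000198727.2), cytochrome b of complex III, had 1895, 309, 70 and 182 reads, or 6.16 and 13.5 per 10000 in eCLIP against 2.81 and 17.8 in input. ATP6 (ENSG00000198899.2), the subunit of ATP synthase that forms its proton channel, had 1933, 317, 68 and 226 reads, or 6.29 and 13.8 per 10000 against 2.73 and 22.1. ATP8, which precedes ATP6 on a shared messenger RNA and overlaps it, had 786, 85, 13 and 154 reads, or 2.56 and 3.70 per 10000 against 0.522 and 15.1. Input 2 was the highest library for all 3 of these genes, and input 1 the lowest.

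ND6 (ENSG00000198695.2), the complex I subunit encoded on the other strand, had 1462 reads in 6 peaks in eCLIP replicate 1, 542 reads in 5 peaks in eCLIP replicate 2, 36 reads in 2 peaks in input 1 and 52 reads in 1 peak in input 2. This was 4.75 and 23.6 reads per 10000 in eCLIP against 1.44 and 5.09 in input. Input 2 lay just above eCLIP replicate 1, so the groups overlapped by this measure, while eCLIP replicate 2 was far above both inputs.

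Levels of different genes were set side by side per kilobase of gene, as reads per 10000 reads in peaks per kb. In eCLIP replicate 1 the messenger RNAs ran from 3.62 for ND2 to 12.3 for ATP8, with COX1 at 11.1 and ND6 at 9.06. In eCLIP replicate 2 they ran from 6.60 for ND2 to 45.0 for ND6, followed by ND4 at 27.3 and ND4L at 24.0. In input 1 the 12 listed messenger RNAs ran from 1.34 for ND1 to 4.01 for ATP6, with ND6 at 2.75. In input 2 they ran from 6.97 for ND1 to 72.9 for ATP8, with ND4 at 40.9 and ND6 at 9.70. ND6 was therefore the first of the 13 in eCLIP replicate 2 and in the lower part of the order in input 2. For comparison RNR2 stood at 127 and 372 per kb in eCLIP and at 69.7 and 1755 in the inputs. All levels per kb given here count touching intervals separately. With them merged, ATP8 fell from 2.56 to 1.54 reads per 10000 in eCLIP replicate 1, and from 15.1 to 11.0 in input 2. COX1 fell from 17.1 to 10.9 and ND6 from 4.75 to 4.38 in eCLIP replicate 1, so the order there depends on the counting. Across the messenger RNAs the log2 levels per kb had a Pearson r of 0.731 between the eCLIP libraries, 0.367 between the inputs and 0.231 to 0.584 between an eCLIP library and an input. By rank the eCLIP libraries and the inputs were alike, with Spearman's rho of 0.467 and 0.445. These are descriptions over 12 or 13 genes, which are not independent replicates.

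**Figure D2:**
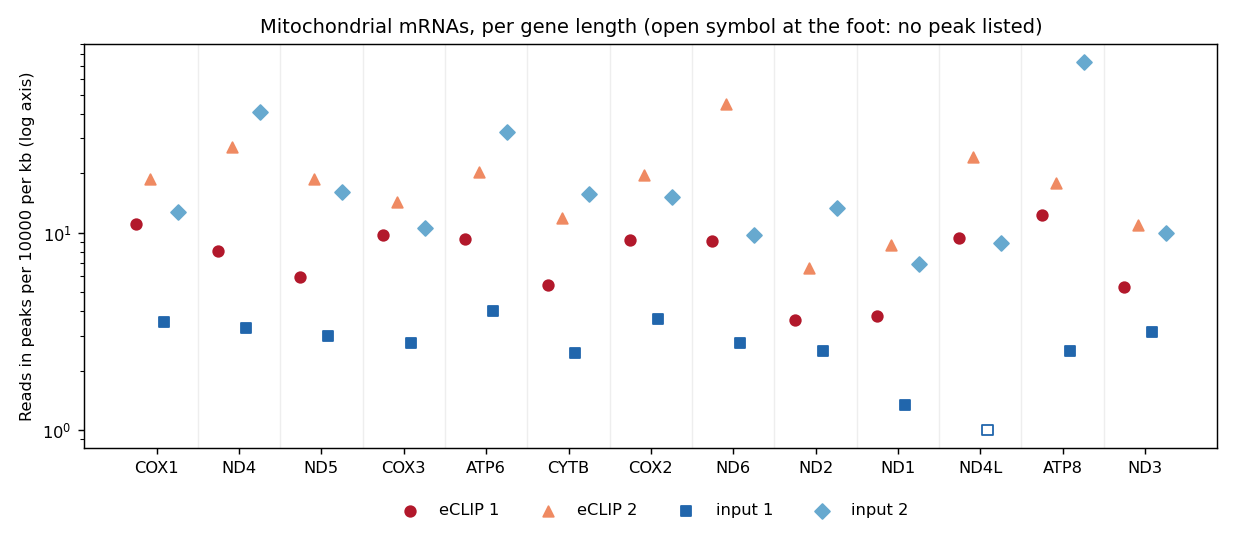
Reads in peaks per 10000 reads of the library and per kb of gene (log axis) are plotted for the 13 mitochondrial messenger RNAs, with 1 symbol per library and no error bars, since each point is 1 library. ND6 is highest in eCLIP replicate 2 at 45.0 and ATP8 in input 2 at 72.9, input 1 is lowest for each messenger RNA, and the open square marks ND4L, for which input 1 lists no peak. Touching intervals are not merged here.

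Gene shares were tested with limma on the whole table of 8914 genes, each with a minimum of 10 peaks summed over libraries, and 10 of these genes were members. By share of reads, limma called 0 genes higher and 0 lower in eCLIP at an adjusted p of 0.05 (0% in each direction), and 242 and 96 at an unadjusted p of 0.05, none of them members. By share of peaks it also called 0 and 0 (0% each), with 112 and 62 unadjusted and again no member. The members' median log2 difference in read share was 0.67, with 9 of 10 above 0, against a median of 0.16 over all genes tested. With touching intervals merged it was 0.24 with 6 of 10 above 0, against 0.17, and the count above 0 was 5 without eCLIP replicate 2 and 3 without input 1. In peak share it was -0.74, against 0.16 over all genes tested, but neither position was stable. The members' share of peaks was lowest in the longest list (0.0315%) and highest in the shortest (0.482%). The part of list length in the peak-share difference was not tested. By reads the members' median was 0.59 against 0.73 with peaks of p at most 0.001, -0.42 against 0.47 without input 1, and -0.01 against 0.31 without eCLIP replicate 2. By peaks it was 0.02 against a median of 0 without eCLIP replicate 1 and 0.08 against -0.06 without input 2. The share of all tested genes above 0 was not counted, and the 10 members are not independent of each other. Among the 10 members tested, the largest difference in read share was that of ND6, at 1.77 (SE 0.90, limma adjusted p = 0.935). COX1 followed with 1.05 (SE 0.87) and COX3 with 1.01 (SE 0.82), and ND2 was lowest at -0.25 (SE 0.87). When all genes with at least 1 peak were tested, ND4L stood at 2.00 (SE 0.84) and TRNF at 1.70 (SE 0.73), with a limma adjusted p of 0.717 for both. Both eCLIP libraries exceeded both inputs for 0 of the 10 members by read share, where 25% of all tested genes did so, and both lay lower for 0, where 9.08% did. By peak share the members' counts were again 0 and 0, against 21.1% and 10.2% of all genes.

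When libraries of the same number were set against each other, all 13 messenger RNAs had a higher read share in eCLIP replicate 1 than in input 1, ND4L with no input peak. Between the libraries numbered 2, 8 were higher and 5 lower in eCLIP. Of the 14 listed transfer RNAs, some without an input peak, eCLIP replicate 1 exceeded input 1 in 11 and fell below it in 3. eCLIP replicate 2 exceeded input 2 in 10 and fell below it in 0. The members' total share was 0.881% in eCLIP replicate 1 and 0.350% in input 1, then 2.18% and 2.13% in the libraries numbered 2. No such count was made over all genes, merged or not, so whether these counts are unusual was not tested. The ratio for ND6 was 3.29 for number 1 and 4.63 for number 2. COX1 had 3.15 and 1.46, COX3 had 3.51 and 1.37, ND5 had 1.99 and 1.17, and ND1 had 2.83 and 1.25. ND4 had 2.45 and 0.667, CYTB had 2.19 and 0.755, ATP6 had 2.30 and 0.624, ND2 had 1.45 and 0.495, and ATP8 had 4.90 and 0.245. ND6 was thus the messenger RNA with the highest ratio for number 2, and ATP8 had the lowest for number 2. Its 4.90 for number 1 rests on 13 reads in input 1. With touching intervals merged, 11 messenger RNAs were higher for number 1 and 4 for number 2, and COX1, COX3, ND4L and ND6 were higher for both. ND6 then had 2.31 and 3.67, ATP8 had 2.24 and 0.356, and ATP6 had 0.872 and 0.413. These ratios rest on 1 library on each side and have no replicate error.

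**Figure D3:**
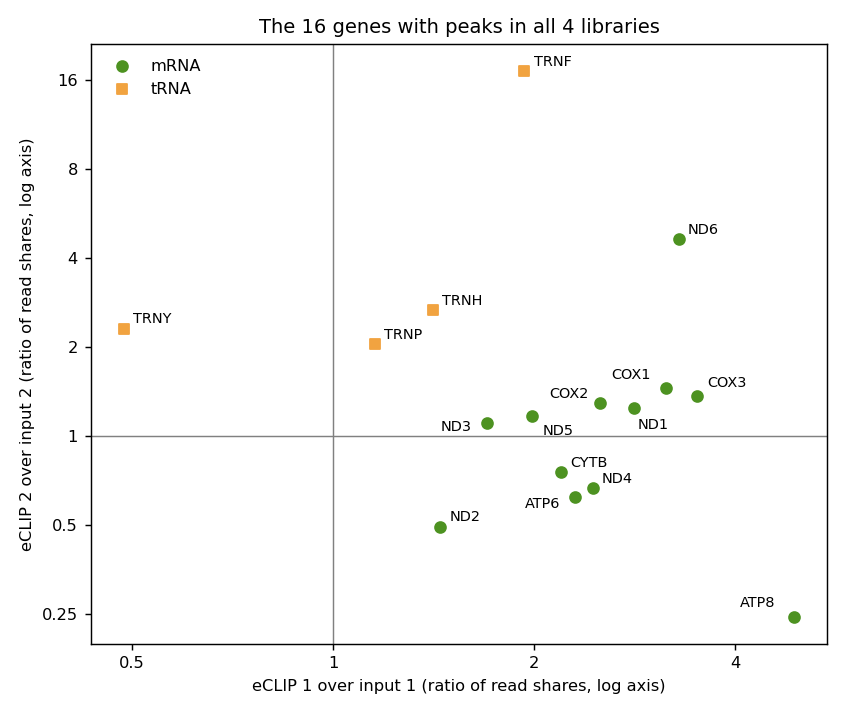
The read share in eCLIP over that in the input of the same number is plotted for number 1 (x axis) and number 2 (y axis), both log axes, for the 16 member genes with peaks in all 4 libraries, with lines at a ratio of 1. ND6 is the messenger RNA farthest above the line for number 2 (4.63), ATP8 is farthest below it (0.245), and TRNF at 17.2 rests on 3 reads in input 2.

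Shares within the member reads take the total of mitochondrial messenger and transfer RNA out of the comparison. ND6 made up 5.40% and 10.8% of the member reads in the eCLIP libraries, with 4.13% and 2.39% in the inputs, so both eCLIP libraries lay above both inputs. This measure was chosen after its values were seen and has no test. The intervals of eCLIP replicate 1 (5.13 to 5.67) and input 1 (3.00 to 5.66) overlapped. ND6 also separated the groups with touching intervals merged (6.05% and 11.4% against 4.17% and 2.64%) and with peaks of p at most 0.001 (5.40% and 10.9% against 5.03% and 2.44%). Of the 27 genes, 7 lay higher in both eCLIP libraries (25.9%) and 3 lower in both (11.1%). Over the 8914 genes tested, 25% and 9.08% did so by share of all reads in peaks. The members' counts were thus near the level of all genes, although the 2 measures differ. The 7 were ND1, ND4L, ND6, TRNG, TRNL2, TRNM and TRNV, and the 3 were ATP6, CYTB and ND2. Of the 7, 3 had no peak in either input and so had to lie above them, namely TRNG, TRNL2 and TRNV, while ND4L and TRNM had none in input 1. With intervals merged, 6 lay higher, all of them among the 7, and ND1 did not. With peaks of p at most 0.001, 10 lay higher, 6 of them among the 7. COX1 took 19.4% and 13.2% against 15.5% and 9.24%, and ND4 12.6% and 17.2% against 13.0% and 26.4%, with the groups overlapping.

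The minus strand as a whole, here ND6 and 4 transfer RNA genes, held 6.12% of the member reads in eCLIP replicate 1 (interval 5.84 to 6.41) and 11.8% in eCLIP replicate 2 (10.9 to 12.7). It held 6.31% in input 1 (4.88 to 8.12) and 2.85% in input 2 (2.23 to 3.64). eCLIP replicate 1 and input 1 did not differ beyond these intervals, and eCLIP replicate 2 was highest. The eCLIP mean exceeded the input mean by 4.37 percentage points with a pooled SD of 3.32 (exact two-sided permutation p = 0.67). The 4 transfer RNAs of this strand set it apart from ND6 alone, since they held 0.723% and 0.977% in eCLIP libraries against 2.18% and 0.460% in input. With intervals merged, the strand's shares were 6.98% and 12.5% against 6.37% and 3.14%, and the groups no longer overlapped (exact permutation p = 0.33).

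The ND6 peaks of the eCLIP libraries overlapped along the gene, in hg19 coordinates as deposited. The deepest interval of eCLIP replicate 1 was chrM:14354-14401 with 461 reads, and that of eCLIP replicate 2 was chrM:14331-14408 with 223 reads. Input 1 had chrM:14363-14412 with 21 reads and input 2 had chrM:14349-14429 with 52 reads, so this middle section of the gene was covered in all 4 libraries. A further section toward the 5′ end was listed at chrM:14465-14498 with 271 reads, chrM:14465-14500 with 128 reads and, in input 1, chrM:14460-14496 with 15 reads. The remaining sections were listed in eCLIP alone. They were chrM:14265-14297 with 246 reads (62 in eCLIP replicate 2), chrM:14157-14173 with 158 reads (84), near the 3′ end, and chrM:14559-14571 with 136 reads (45). Of 3 equal parts of ND6, the middle part held 63.1% and 64.8% of its reads in eCLIP and 100% in each input.

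COX1 held the deepest member interval of the experiment, chrM:6201-6269 with 770 reads in eCLIP replicate 1. The same place was the deepest COX1 interval of eCLIP replicate 2 (chrM:6210-6291, 153 reads) and of input 1 (chrM:6212-6276, 41 reads), and input 2 listed it with 43 reads. In input 2 the deepest COX1 interval was chrM:6466-6576 with 79 reads, which overlaps chrM:6476-6529 with 521 reads in eCLIP replicate 1. That library also listed chrM:6342-6388 with 457 reads, and toward the 3′ end input 1 had chrM:7211-7295 with 28 reads. The middle part of COX1, divided likewise, held 53.8% and 47.9% of its reads in eCLIP against 29.6% and 64.7% in input, so it did not separate the groups. Over all messenger RNAs, each divided into 3 equal parts, the middle part held 42.0% and 36.9% in eCLIP libraries against 29.2% and 29.5% in input, and the part nearest the 3′ end held 25.6% and 30.3% against 31.7% and 36.6%. Here both eCLIP libraries lay on 1 side of both inputs, by a summary chosen after seeing the data and with no test.

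**Figure D4:**
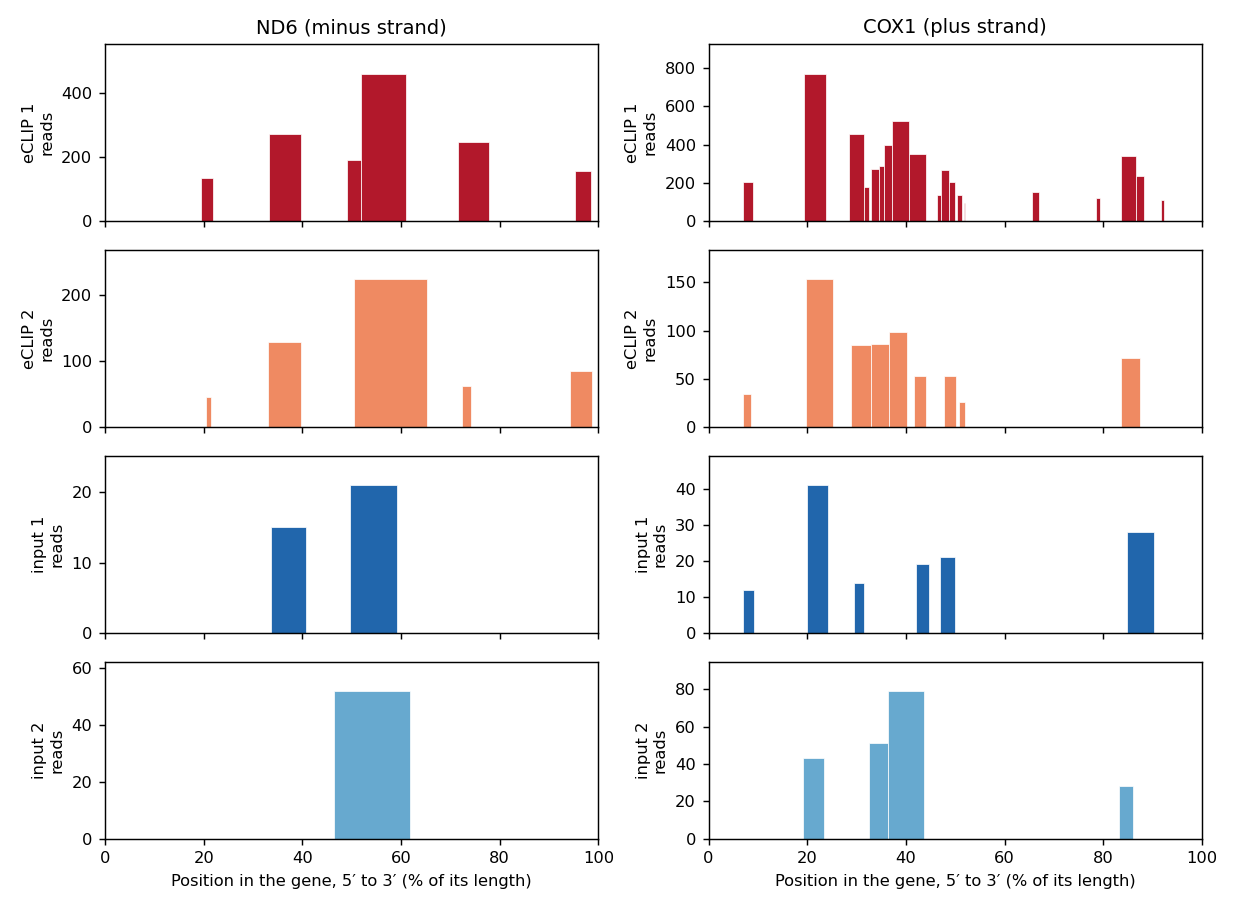
Peaks of ND6 (left) and COX1 (right) are drawn along each gene from 5′ to 3′ as percent of its length, with bar height giving the reads in the peak and 1 row per library on its own scale from 0. The middle section of ND6 is present in all 4 rows, with 461, 223, 21 and 52 reads, whereas 3 of the ND6 sections appear in the eCLIP rows only.

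Other deep intervals were also shared with the inputs. In ND4, chrM:10898-10963 had 428 reads in eCLIP replicate 1, and the overlapping chrM:10934-10992 (50 reads) and chrM:10902-10982 (132 reads) were the deepest ND4 intervals of inputs 1 and 2. The deepest member interval of input 2 was chrM:8598-8682 in ATP6 with 170 reads, at the place of chrM:8615-8692 in eCLIP replicate 2 (141 reads) and chrM:8633-8687 in input 1 (28 reads). In COX2, chrM:7685-7730 had 35 reads in input 1, and chrM:7685-7722 had 393 in eCLIP replicate 1. ND4 in eCLIP replicate 2 was deepest at chrM:11258-11333 with 146 reads, and ND5 at chrM:13632-13707 with 140 reads. Toward the 3′ end of ND4, input 2 listed chrM:11989-12039 with 104 reads and chrM:12040-12091 with 81 reads, the latter without an overlapping peak in eCLIP replicate 1. In ATP8, input 2 listed chrM:8385-8436 with 84 reads.

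Of the 151 member peaks of eCLIP replicate 1, 111 (73.5%, interval 66.0 to 79.9) overlapped by 1 base or more, on the same strand, a peak of eCLIP replicate 2, against 2.96% of all its peaks. Depth moves with this share, since off the mitochondrial chromosome 61.2% of the 1860 peaks with at least 50 reads did so (median 86 reads). Of the 147 member peaks with at least 50 reads (median 164 reads), 74.8% did so, and only the lower limit of depth was matched. In the other direction 87 of the 90 member peaks of eCLIP replicate 2 (96.7%) overlapped eCLIP replicate 1, against 33.1% of all its peaks. The inputs overlapped as well, with 54 of 59 peaks of input 1 (91.5%) and 48 of 54 of input 2 (88.9%) lying on a peak of eCLIP replicate 1. Over all peaks of these inputs the shares were 12.8% and 25.1%. Between the inputs the members' shares were 44.1% of input 1 and 44.4% of input 2, against 3.43% and 18.4% of all their peaks. Joined over the 4 libraries, the members made 117 separate regions of 5678 bases in all, of which 25 regions with 2110 bases were listed in every library, 18 with 579 bases in both eCLIP libraries alone and 22 in eCLIP replicate 1 alone. The positions given inside overlapping peaks lay a median of 6 bases apart between the eCLIP libraries and 12 between the inputs, and 7 to 11 between an eCLIP library and an input.

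A set of 26 member peaks of eCLIP replicate 1 (17.2%) overlapped eCLIP replicate 2 and neither input. Over all peaks of that library the share was 2.52%. Among peaks of at least 50 reads it was 25.3% off the mitochondrial chromosome (median 86 reads) and 17.7% for members (median 164 reads). The members' share was thus no higher, but the 2 sets were not of equal depth. The 26 peaks fell in 15 genes, with 3 peaks each in CYTB, ND4, ND5 and ND6. The deepest was chrM:8130-8168 near the 3′ end of COX2, with 318 reads and 67 in eCLIP replicate 2, and the nearest input peak lay 54 bases away. In ND4L, chrM:10604-10641 had 255 reads. The interval it met in eCLIP replicate 2, chrM:10640-10683 with 100 reads, overlapped it only at its edge. COX3 held chrM:9797-9835 with 232 and 24 reads and chrM:9847-9882 with 218 and 51 reads, the latter 18 bases from an input peak. ND5 held chrM:12602-12648 with 220 and 89 reads and chrM:13352-13381 with 181 and 52 reads. In ND4, the touching intervals chrM:11545-11567 (205 reads) and chrM:11568-11590 (209 reads) met a single interval of eCLIP replicate 2 with 138 reads. That interval, chrM:11518-11575, itself overlapped a peak of input 2. The remaining 16 peaks beyond the 10 deepest had 56 to 164 reads. The inputs held 872 and 2175 member reads in all, and the part of this lower depth in the absence of a section from them was not tested.

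Of the 22 transfer RNAs, 14 were listed in eCLIP replicate 1 and 10 in eCLIP replicate 2. Apart from TRNF, their peaks lay below the member medians of 164 and 47 reads in these libraries. TRNF, the phenylalanine tRNA at the start of the heavy-strand transcript, was the deepest, with 358 and 116 reads in eCLIP and 15 and 3 in the inputs. Per kb it stood at 16.4 and 71.1 per 10000 in eCLIP, above every messenger RNA, and at 8.48 and 4.14 in the inputs. Its interval chrM:588-604 (171 reads in eCLIP replicate 1, 47 in eCLIP replicate 2) was in neither input but touched an input peak. TRNH, for histidine, had 87 and 42 reads against 5 and 7. TRNM, TRNG, TRNV and TRNL2, for methionine, glycine, valine and one of the leucine tRNAs, had 67, 66, 67 and 56 reads in the first eCLIP library. The second listed them with 19, 21, 11 and 16 reads. Of these 4 only TRNM had an input peak, with 5 reads in input 2. TRNI, for isoleucine, had 52, 13 and 16 reads in the eCLIP libraries and input 1, and TRNT, for threonine, had 18, 5 and 6. TRNL1 (80 reads) and TRNS2 (24 reads) were listed in eCLIP replicate 1 alone.

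On the minus strand, TRNP, for proline, had 1 peak in each library at nearly the same place, chrM:15965-15994 with 114 reads, chrM:15965-15989 with 23, chrM:15965-15988 with 8 and chrM:15968-15988 with 5. TRNY, for tyrosine, likewise had 1 peak in each, with 66, 26, 11 and 5 reads. TRNC, for cysteine, and TRNE, for glutamate, had 8 reads each in eCLIP replicate 1 alone. As a ratio of read shares, TRNP had 1.15 for number 1 and 2.04 for number 2, and TRNY had 0.486 and 2.31. No peak was listed for the other 8 transfer RNA genes, namely TRNQ, TRNW, TRNA, TRNN, TRNS1, TRND, TRNK and TRNR.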

How the data were processed

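The 4 libraries were of 1 cell line and were grouped by their titles. Per the submitters' processing notes, reads were handled with cutadapt, STAR and SAMtools against hg19; not given in the sources used here are versions, peak caller, annotation and the treatment of reads mapping to several places. The authors deposited 1 peak list per library, each line with an interval, strand, gene identifier, a p-value of at most 0.05 and a score, which equals 10 times the −log10 of that p-value, cut to a whole number and capped at 1000, and is 0 where the p-value is 0. A read number of at least 3 ends each name. Members and lists were chosen with earlier results of these data known.

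Coordinates are as deposited, counted from 1. Genes were named by lying inside a RefSeq gene (GRCh38.p14), at 0 bases of shift; shifts of 1 to 3 bases put 1 or 2 peaks outside. Sums of reads may count a read again in touching intervals, so merged intervals were an alternative. Shares were tested with limma 3.58.1 in R 4.3.3 (trend, two-sided, Benjamini-Hochberg) on log2(share per 10000 + 0.5), checked on simulated data. The simulated libraries of a group differed by counting error alone, so the check does not show what could be detected at the spread between these libraries. Described in full were the 10 member genes with most reads and every member gene on the minus strand. So were the 5 deepest intervals of each library and the 10 deepest peaks in both eCLIP libraries and neither input. The remaining genes are given in brief. Alternatives were p at most 0.001, more than 3 reads, merged intervals, shares without ribosomal RNA, other pseudocounts and filters, a replicate block and leaving out each library. No sequence is printed.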

Additional observations from a re-analysis of the deposited data

How the results depend on the processing

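In each of the planned settings limma called 0 members in either direction. The log2 difference of the members' read share kept its direction under the other settings (0.21 to 0.68) and ran from -0.62 without input 1 to 1.99 without input 2. The light-strand difference ran from 1.54 to 7.20 percentage points with each library left out. Labels give both groups the numbers 1 and 2, which share only a number: same-numbered libraries deviated together (correlation 0.397 by peaks and 0.337 by reads, 2 pairs). In both groups the list numbered 1 was also the longer, and the part of list length in this correlation was not tested. With the replicate block the differences stayed at 0.68 and 4.37, members called stayed at 0, and calls over all genes were 4 higher and 7 lower by reads and 3 higher and 1 lower by peaks. With touching intervals merged, the log2 differences in read share of ND4, ATP6 and CYTB turned to -0.023, -0.71 and -0.033, where fewer reads are counted. Leaving out 1 library turned the direction of 7 genes: ND4 ran from -1.44 to 2.06, ND5 from -0.59 to 1.73, ATP6 from -1.20 to 1.61, CYTB from -0.93 to 1.54, COX2 from -0.17 to 1.70, ND2 from -1.36 to 0.85 and ND1 from -0.25 to 1.76, lowest without input 1 and highest without input 2. The count of 26 peaks ran from 21 to 34. Shares within member reads and their alternatives were added after seeing the data; the ND6 difference of 4.84 points was 5.33 merged, 4.40 at p of at most 0.001 and 2.14 to 7.55 with a library left out. Input 1, with 872 member reads, limits every ratio for number 1.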

Other observations

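Peaks also lay on a nuclear copy of mitochondrial DNA on chromosome 1, where RefSeq lists 7 neighbouring pseudogenes from MTND1P23 to MTCO3P12. The deposited lists held 15 and 9 peaks there for eCLIP, and 5 and 2 for the inputs, within chr1:565245-570147, with 416, 82, 24 and 14 reads. Per 100 member reads this was 1.54 and 1.63 in eCLIP and 2.75 and 0.644 in the inputs. The deepest interval was chr1:569327-569415 with 208 reads in eCLIP replicate 1, listed at chr1:569350-569417 with 35 reads in eCLIP replicate 2 and at chr1:569313-569391 with 11 reads in input 2. Minus-strand peaks there numbered 6 and 4 in eCLIP, with 97 and 30 reads, against 0 and 1 in the inputs, with 0 and 3 reads.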
